A study of Arabidopsis thaliana with 18 samples.

Results

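PUB23 (AT2G35930), AT4G29780, AT5G52050 and AT1G02660 are 4 Arabidopsis thaliana genes whose mean signals after 1 h of sound were above silence at every frequency. For all but AT4G29780, some sound arrays lay within the range of the silent controls. They were chosen as probe sets that the platform's gene table assigns to 1 of these genes alone. Each has 1 such probe set, so they account for 4 of the 22746 probe sets measured. They were picked from the same log2 signals over the same 6 groups that are described here, so their levels and differences are given as a description, with no test. All 4 genes were measured on every array and no filter on low signal was applied to them.

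The series measured rosettes of Col-0 plants on Affymetrix arrays, from total RNA copied into cRNA that carried biotin. Plants 20 days old, raised in continuous light, spent 1 h in a chamber kept free of noise, with or without a tone. The 6 groups were silence (the control) and single tones of 250, 500, 1000, 2000 or 3000 Hz at 80 dB, with 3 biological replicates each and 18 arrays in all. All plants were of the same wild type, and every frequency was set against the same 3 control arrays.

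PUB23 is a plant U-box protein, an E3 ligase that attaches ubiquitin to other proteins and so marks many of them for breakdown. With its close relatives PUB22 and PUB24 it is known to damp the immune response to microbial patterns, and PUB22 and PUB23 also act in the response to drought. AT5G52050 is listed as DTX50, a detoxification efflux carrier of the MATE family, and is known for moving the stress hormone abscisic acid out of cells. The annotation used here gives AT4G29780 and AT1G02660 by locus only, so no role is stated for them. Transcripts that rise within an hour of wounding, touch or a microbial signal are known in plants as rapid or early stress-response transcripts.

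Some features of the arrays touch the values below. Control replicates 1 and 2 differed at least 2-fold at 1308 probe sets, replicates 1 and 3 at 944 and replicates 2 and 3 at 731. The poly-A spike controls, bacterial transcripts added before labelling, averaged log2 signals of 5.99 to 6.51 on the 6 arrays of 2000 and 3000 Hz and 5.37 to 5.59 on the other 12. The array labelled control replicate 2 lay nearer to the sound arrays than the other controls did for several genes described here, such as AT1G02660, EXO and WRKY22. For STZ and PUB24, also described here, the highest control array was replicate 3. All 15 sound arrays were above all 3 controls for 0.268% of probe sets and above control replicates 1 and 3 for 3.99%. A share over 2 controls cannot be smaller than over all 3. The shares without control replicate 1 or 3 were not computed, so nothing is read from this rise. Whether control replicate 2 matches its label was not tested, so each difference from control is to be read with its value without that array. No control array lay in the higher spike set, so for 2000 and 3000 Hz the tone cannot be told apart from the spike set. RCA (rubisco activase), the 1 of 15 listed leaf markers that could be named, had 14.1 to 14.3 on all 18 arrays. By array, the mean of the 6 measured root markers was 4.70 to 5.70 and that of the 3 measured pollen and floral markers 4.33 to 4.54. PYK10, 1 of these root markers, ran from 4.14 to 8.67, with 8.67, 5.38 and 5.82 on control replicates 1, 2 and 3. The part of this spread in the differences below was not tested. In whole rosettes, a smaller share of the cells that hold a transcript and less transcript per cell cannot be told apart.

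For PUB23, the ubiquitin ligase gene, the log2 signals in silence were 6.56 (replicate 1), 7.23 (replicate 2) and 6.40 (replicate 3). At 250 Hz it had 7.40, 7.37 and 7.55, and at 500 Hz 7.56, 8.41 and 7.95. At 1000 Hz the signals were 8.38, 7.49 and 7.69, at 2000 Hz 6.80, 6.82 and 7.03, and at 3000 Hz 7.29, 7.72 and 8.15. All arrays of 250, 500, 1000 and 3000 Hz thus lay above all 3 controls, whereas the 3 arrays of 2000 Hz lay inside the control range, below control replicate 2.

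The group means of PUB23 fell into a high set and a low set. From high to low they were 7.97 ± 0.43 at 500 Hz, 7.85 ± 0.47 at 1000 Hz, 7.72 ± 0.43 at 3000 Hz, 7.44 ± 0.10 at 250 Hz, 6.88 ± 0.13 at 2000 Hz and 6.73 ± 0.44 in the control (SD, n = 3 each). Neighbours in this order overlapped, apart from 250 and 2000 Hz. The fitted log2 difference from control was 1.24 ± 0.27 at 500 Hz (SE, 2.37-fold), 1.12 ± 0.27 at 1000 Hz, 0.99 ± 0.27 at 3000 Hz, 0.71 ± 0.27 at 250 Hz and 0.15 ± 0.27 at 2000 Hz. Only the value at 2000 Hz was smaller than its standard error.

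AT4G29780 had log2 signals of 6.17, 7.10 and 6.34 on the 3 control arrays. It had 7.65, 7.51 and 8.37 at 250 Hz, and 7.68, 10.02 and 8.93 at 500 Hz. At 1000 Hz the signals were 9.37, 7.93 and 7.33, at 2000 Hz 7.58, 7.45 and 8.29, and at 3000 Hz 7.55, 8.15 and 7.99. All 15 sound arrays lay above all 3 controls, which was so for AT4G29780 alone among the 4 genes and, as given above, for 0.268% of all probe sets.

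The tones were less clearly ordered for AT4G29780 than the sound arrays were from silence. Its means were 8.88 ± 1.17 at 500 Hz, 8.21 ± 1.05 at 1000 Hz, 7.90 ± 0.31 at 3000 Hz, 7.84 ± 0.46 at 250 Hz and 7.77 ± 0.45 at 2000 Hz, and 6.54 ± 0.50 in the control (SD, n = 3 each). Any 2 tones overlapped, and the gap between 2000 Hz and the control was the 1 place in the order where ranges were apart. The log2 difference from control ran from 1.24 ± 0.53 at 2000 Hz (SE, 2.36-fold) to 2.34 ± 0.53 at 500 Hz (5.06-fold). The value at 500 Hz leaned on 1 array, since 500 Hz replicate 2 had 10.02 against 7.68 on replicate 1, and the difference was 1.77 without that array. So did the value at 1000 Hz, which was 1.67 with all arrays. Without 1000 Hz replicate 1 it was 1.09, below the 1.24 at 2000 Hz.

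AT5G52050 (DTX50) had log2 signals of 6.41, 6.08 and 5.74 on the 3 control arrays. It had 6.38, 6.73 and 7.21 at 250 Hz, 6.74, 6.83 and 6.11 at 500 Hz, and 6.88, 6.57 and 6.08 at 1000 Hz. At 2000 Hz the signals were 6.84, 7.70 and 8.36, and at 3000 Hz 7.12, 7.55 and 7.42. The 6 arrays of the highest tones lay above all controls, while 1 array each of 250, 500 and 1000 Hz lay within the control range.

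This efflux carrier gene ranked the tones differently from the other 3 genes. Its means were 7.63 ± 0.76 at 2000 Hz, 7.36 ± 0.22 at 3000 Hz, 6.77 ± 0.42 at 250 Hz, 6.56 ± 0.39 at 500 Hz, 6.51 ± 0.40 at 1000 Hz and 6.08 ± 0.34 in the control (SD, n = 3 each), and every pair of neighbours overlapped. The log2 difference from control was 1.56 ± 0.33 at 2000 Hz (SE, 2.94-fold) and 1.29 ± 0.33 at 3000 Hz (2.44-fold), against 0.43 to 0.70, each ± 0.33, at the 3 lower tones. The groups in which the mean of AT5G52050 was highest are those of the higher spike set, although 250 Hz replicate 3 (7.21) lay above 3000 Hz replicate 1 (7.12) and 2000 Hz replicate 1 (6.84). The spike mean was 6.34 ± 0.16 at 2000 Hz and 6.19 ± 0.18 at 3000 Hz, against 5.46 ± 0.04 in the control (SD, n = 3). The difference between 3' and 5' actin probe sets, a sign of RNA or labelling quality, was 1.75 ± 0.09 at 2000 Hz and 1.61 ± 0.06 at 3000 Hz, against 1.94 ± 0.02 in the control (SD, n = 3). The part of the spike set and of the actin difference in this result was not tested.

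AT1G02660 had log2 signals of 5.51, 8.51 and 6.43 on the 3 control arrays, the widest control spread of the 4 genes. It had 8.31, 7.67 and 9.29 at 250 Hz, and 8.73, 9.78 and 10.23 at 500 Hz. At 1000 Hz the signals were 8.69, 8.15 and 8.45, at 2000 Hz 8.54, 7.21 and 8.34, and at 3000 Hz 8.52, 8.16 and 7.92. The 3 arrays of 500 Hz lay above all controls, and at every other tone at least 1 array lay below control replicate 2. In all, 8 of the 15 sound arrays were below that control array, and 15 of 15 were above the other two.

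In AT1G02660, all arrays of 500 Hz lay above those of the control, 1000, 2000 and 3000 Hz, but not above those of 250 Hz. Among all probe sets, 10.3% had 500 Hz above all controls. Ranges of 500 Hz and of 1000, 2000 or 3000 Hz were apart for 19.6%, 23.8% and 34.3%. The means were 9.58 ± 0.77 at 500 Hz, 8.43 ± 0.27 at 1000 Hz, 8.42 ± 0.82 at 250 Hz, 8.20 ± 0.30 at 3000 Hz and 8.03 ± 0.72 at 2000 Hz, and 6.82 ± 1.54 in the control (SD, n = 3 each). Ranges were apart between 500 and 1000 Hz only among the neighbours. The log2 difference from control was 2.76 ± 0.61 at 500 Hz (SE, 6.79-fold) and 1.21 ± 0.61 to 1.61 ± 0.61 at the other 4 tones. The control SD of 1.54 was larger than the 0.62 pooled over the sound groups, and 0.303% of all probe sets had a larger control SD. Since the fit pools the spread over the 6 groups, the standard error of AT1G02660 understates the spread of its controls.

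**Figure D1:**
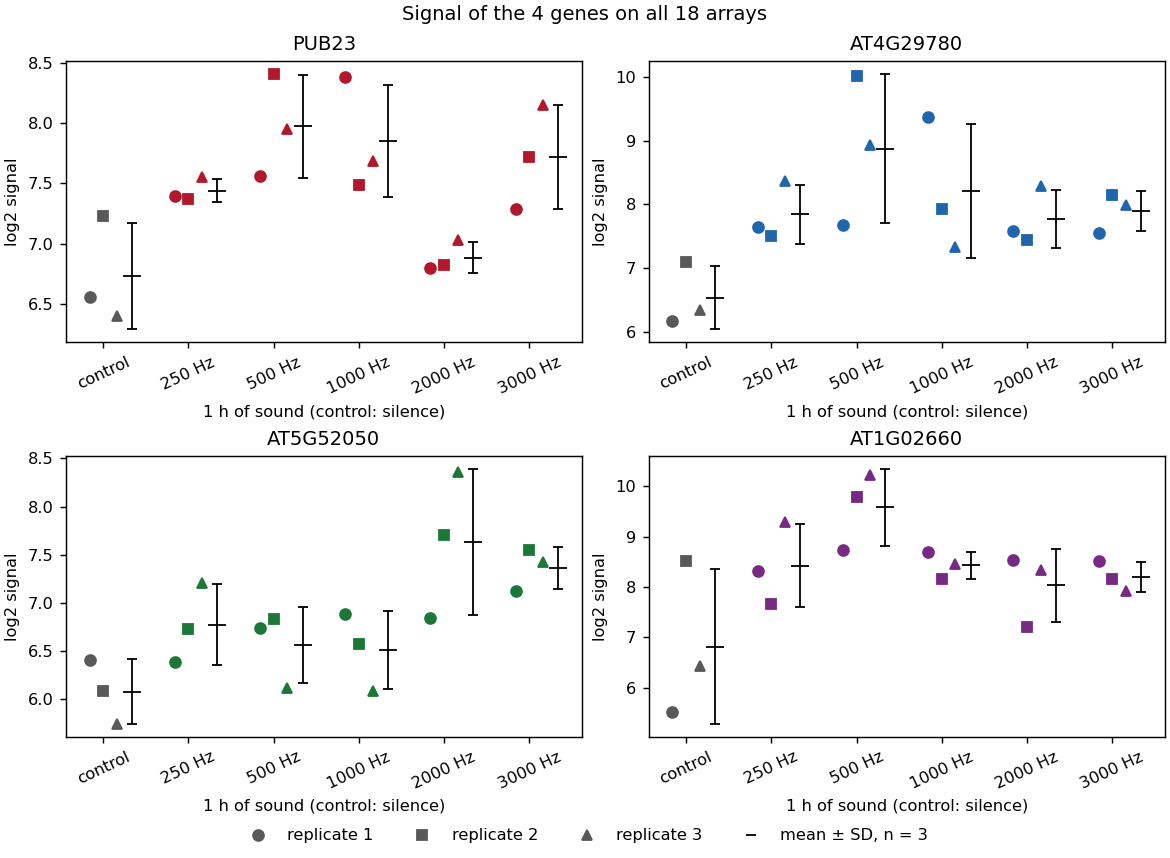
Log2 signal of PUB23, AT4G29780, AT5G52050 and AT1G02660 (1 panel each) on the 18 arrays, by group from silence to 3000 Hz; symbols mark replicates 1 to 3 and the black bars the mean ± SD (n = 3). PUB23 at 2000 Hz (6.80 to 7.03) lay within the control range of 6.40 to 7.23, and control replicate 2 of AT1G02660 (8.51) lay among the sound arrays.

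Read together, the 4 genes stood beyond all controls in 2 or 3 of 4 cases at each tone. At 250 Hz this was so for 2 of 4 genes, PUB23 and AT4G29780, as for 6.05% of all probe sets. At 500 Hz it was 3 of 4, all but AT5G52050, against 10.3% of all probe sets. At 1000 Hz it was PUB23 and AT4G29780, 2 of 4 (7.71% of all), at 2000 Hz AT4G29780 and AT5G52050, 2 of 4 (7.50%), and at 3000 Hz 3 of 4, all but AT1G02660 (10.1%). The genes were chosen on these contrasts, so nothing is read from these shares. The median log2 difference over the 4 genes was 1.01 at 250 Hz, 1.79 at 500 Hz, 1.37 at 1000 Hz, 1.23 at 2000 Hz and 1.32 at 3000 Hz, beside medians between -0.02 and 0.01 over all probe sets.

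Control replicate 2 moved several of these values. It was the highest control array for PUB23, AT4G29780 and AT1G02660, whereas for AT5G52050 control replicate 1 was the highest. Without it the log2 difference of AT1G02660 was 2.45 at 250 Hz, 3.61 at 500 Hz, 2.46 at 1000 Hz, 2.06 at 2000 Hz and 2.23 at 3000 Hz. Without control replicate 1 the same gene had 0.95, 2.11, 0.96, 0.56 and 0.73 at these tones. Without control replicate 2, AT4G29780 had between 1.52 at 2000 Hz and 2.62 at 500 Hz, and PUB23 between 0.40 at 2000 Hz and 1.49 at 500 Hz. PUB23 at 2000 Hz had -0.01 without control replicate 3. AT5G52050 changed little without control replicate 2, to 1.56 at 2000 Hz and 1.29 at 3000 Hz. Without control replicate 3 it had 1.39 at 2000 Hz, and without 1 of the 2000 Hz arrays from 1.19 to 1.95. Against control replicates 1 and 3 alone, all 15 sound arrays were higher for PUB23, AT4G29780 and AT1G02660 and 12 of 15 for AT5G52050, and all 15 were higher for 3.99% of all probe sets. By tone, 3 of 4 genes stood above these 2 controls on all 3 arrays at 250 Hz (14.3% of all probe sets), 3 at 500 Hz (20.3%), 3 at 1000 Hz (20.0%), 4 at 2000 Hz (17.2%) and 4 at 3000 Hz (19.8%). Since the genes were picked from these same signals, nothing is read from these shares. The array left out was the highest control for all but AT5G52050, and no such counts were made without control replicate 1 or 3.

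**Figure D2:**
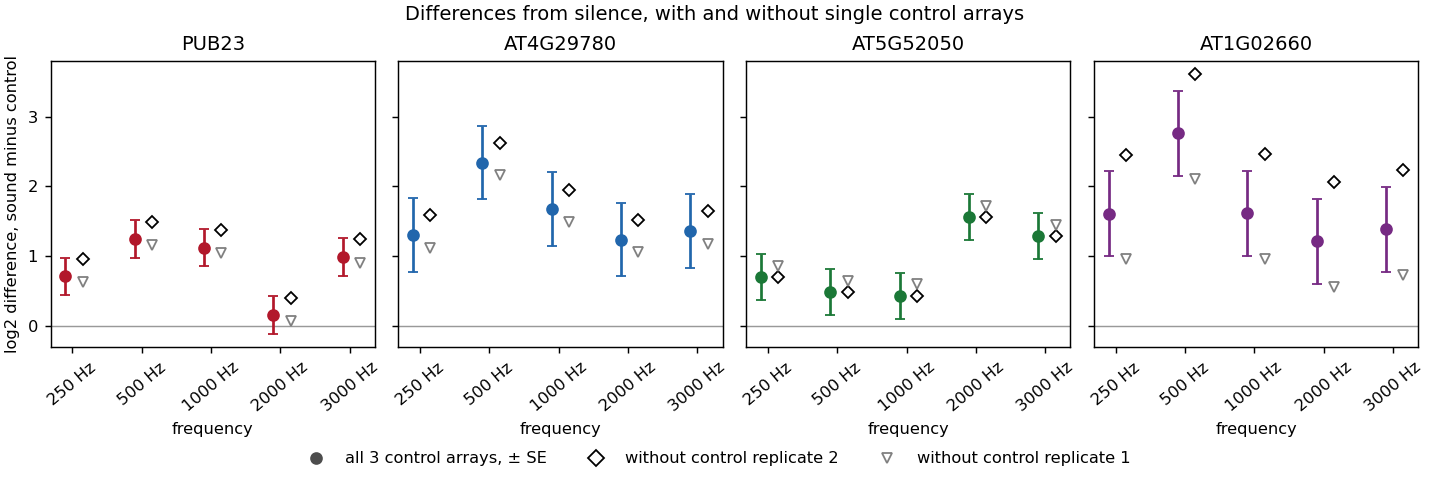
Log2 difference from control (vertical axis) at each frequency for the 4 genes, 1 panel each; filled points use all 3 control arrays with ± SE, open diamonds leave out control replicate 2 and open triangles control replicate 1. AT1G02660 at 500 Hz had 2.11 without control replicate 1 and 3.61 without control replicate 2. AT5G52050 at 2000 Hz had 1.72 and 1.56 in the same order, and 1.39 without control replicate 3, which is not drawn.

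Differences between tones do not use the control signals, but their standard errors come from the fit over the 6 groups and include the spread of the controls. Of 40 such comparisons (10 pairs of tones for 4 genes), 11 had all arrays of one tone beyond all of the other, or 27.5%. Among all probe sets the share was 26.4% for 500 against 250 Hz, 24.6% for 1000 against 250 Hz, 24.9% for 2000 against 250 Hz and 33.7% for 3000 against 250 Hz. It was 19.6% for 1000 against 500 Hz, 23.8% for 2000 against 500 Hz and 34.3% for 3000 against 500 Hz, and 26.9%, 30.7% and 23.8% for 2000 against 1000 Hz, 3000 against 1000 Hz and 3000 against 2000 Hz. The share of the 4 genes lay within that span.

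PUB23 held 5 of the 11. It was lower at 2000 Hz than at 250 Hz by a log2 difference of -0.56 ± 0.27, than at 500 Hz by -1.09 ± 0.27 and than at 1000 Hz by -0.97 ± 0.27 (SE). Within the higher spike set it was 0.84 ± 0.27 higher at 3000 Hz than at 2000 Hz, and within the lower set 0.53 ± 0.27 higher at 500 Hz than at 250 Hz.

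AT1G02660 held 3, all with 500 Hz on top: log2 differences of -1.15 ± 0.61 at 1000 Hz, -1.55 ± 0.61 at 2000 Hz and -1.38 ± 0.61 at 3000 Hz, each minus 500 Hz. AT5G52050 also held 3. It was higher at 2000 Hz than at 500 Hz by 1.07 ± 0.33, and higher at 3000 Hz than at 500 Hz by 0.80 ± 0.33 and than at 1000 Hz by 0.85 ± 0.33, all of them between the 2 spike sets. Within the higher spike set AT5G52050 differed by -0.27 ± 0.33 between 3000 and 2000 Hz, with overlapping arrays, and AT4G29780 had 0 of its 10 pairs apart.

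The 4 genes also varied among replicates of the same tone. PUB23 and AT4G29780 kept the closest company, with a Pearson r of 0.83 over the 18 arrays and 0.82 for the deviations from group means. Both were highest on 500 Hz replicate 2, and at 1000 Hz both were highest on replicate 1. AT1G02660 had r = 0.80 with AT4G29780 and 0.70 with PUB23, and 0.55 and 0.49 for the deviations. AT5G52050 had r = 0.09 with PUB23, 0.32 with AT4G29780 and 0.07 with AT1G02660, and over the 15 sound arrays alone -0.31, -0.003 and -0.40. The 2 signals in each point come from the same plants and the same labelling, and 18 arrays in 6 groups are not 18 independent conditions.

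**Figure D3:**
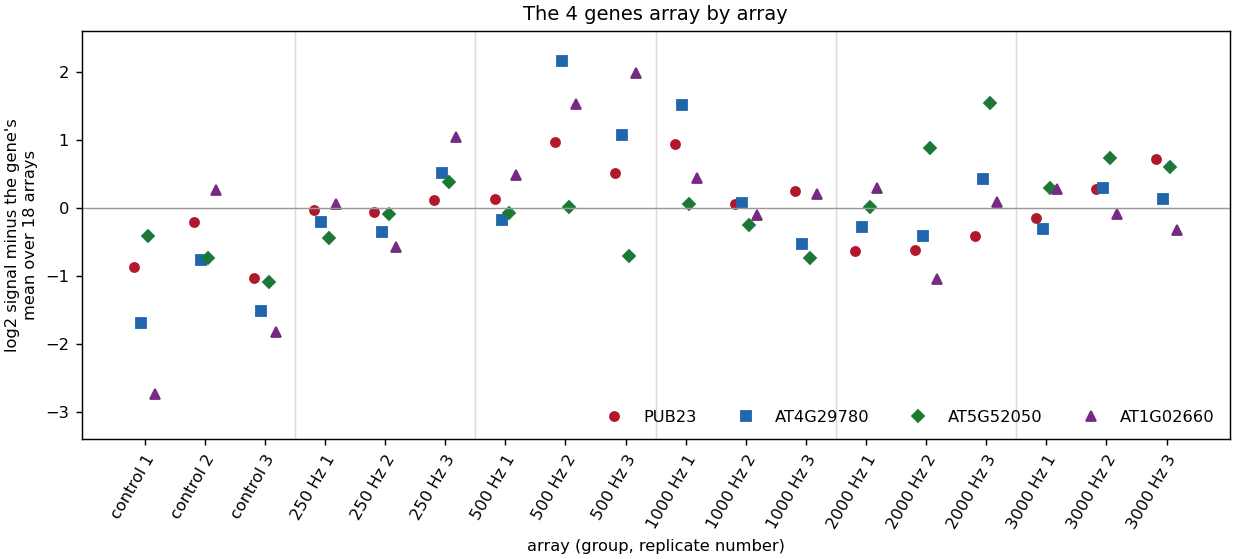
Log2 signal of each gene minus its own mean over the 18 arrays (vertical axis), for the 18 arrays grouped by tone from silence to 3000 Hz. PUB23 and AT4G29780 (r = 0.83) were both highest on 500 Hz replicate 2, while AT5G52050 stood highest on 2000 Hz replicate 3 (signal 8.36) and below the others on 500 Hz replicate 3 (signal 6.11).

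Other genes followed each of the 4 closely over the 18 arrays. Nearest to PUB23 were AT5G05300 (r = 0.92), AT5G22690 (r = 0.92), XTH18 (AT4G30280), a xyloglucan-modifying enzyme of the cell wall (r = 0.91), AT3G19970 (r = 0.88) and AT4G20830 (r = 0.86). XTH18 had a mean of 7.09 at 2000 Hz, 10.22 at 500 Hz and 7.61 in the control, so it too was low at 2000 Hz. AT4G29780 was most like AT5G66070 (r = 0.93), AT5G46710 (r = 0.92), AT5G17350 (r = 0.92), AT3G19970 (r = 0.90) and AT3G56880 (r = 0.90). AT3G19970 thus stood near both PUB23 and AT4G29780.

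For AT1G02660 the likeness was closest. AT3G55430 had r = 0.96, the transcription factor gene WRKY22 r = 0.95, AT3G13430 r = 0.95, AT5G10695 r = 0.95 and SEC15B (AT4G02350), an exocyst subunit gene, r = 0.94. For AT5G52050 it was looser: AT1G04770 r = 0.81, AT3G45310 r = 0.79, and AT4G13800, AT2G25450 and AT1G33760 r = 0.77 each. AT1G04770 had means of 10.24 at 2000 Hz and 10.12 at 3000 Hz, 8.51 to 8.76 at the lower tones and 7.42 in the control, the same split between the 2 spike sets as AT5G52050.

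Likeness of the deviations from group means, which leaves out the tones, picked partly other genes. For PUB23 these were AT4G15390 (r = 0.93), AT3G19970 (r = 0.90) and AT5G17350 (r = 0.89), where AT4G15390 was dim, with group means of 4.43 to 4.63. AT4G29780 had AT4G02200 (r = 0.95), AT5G17350 (r = 0.94) and AT2G44370 (r = 0.93), and AT1G02660 had AT3G06780 (r = 0.95), AT3G55430 (r = 0.93) and AT5G10695 (r = 0.93). The closest to AT5G52050 were TBL21 (r = 0.80), AT3G04390 (r = 0.79) and AT2G26390 (r = 0.79), of which TBL21 was near the floor of the arrays with group means of 3.81 to 3.94.

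The next question was whether genes of the pathways around these 4 differed from silence. These genes were tested with limma over all 22746 probe sets, with Benjamini-Hochberg adjustment. Of 188 listed genes 43 could be named on the array. The lists were chosen with earlier results of these data known, so their counts are a description and no independent support. At 500 Hz 9 of the 43 rose and 0 fell (17 at an unadjusted p under 0.05), against 4.14% of all probe sets higher and 4.77% lower. At 2000 Hz 3 rose and 0 fell (1.62% of all higher and 1.27% lower), and at 3000 Hz 2 rose and 0 fell (2.84% higher and 3.76% lower). At 250 and 1000 Hz 0 of 43 passed in limma, with 12 and 13 at an unadjusted p under 0.05, beside 0.0352% of all probe sets higher and 0.00879% lower at 250 Hz and 0.00% either way at 1000 Hz. Without control replicate 2 the calls were 12 at 250 Hz, 13 at 500 Hz, 10 at 1000 Hz and 8 each at 2000 and 3000 Hz. In the same fits 2175, 4075, 2177, 2576 and 2769 of all 22746 probe sets were called, so calls rose across the whole array. At 500 Hz there were 0 listed calls without 500 Hz replicate 2 (2 of all probe sets) and 1 without control replicate 1 (182 of all). At 2000 Hz there were 0 listed calls without control replicate 3 (104 of all) or 2000 Hz replicate 1 (48 of all). There was 1 without control replicate 1 (471 of all). At 3000 Hz there were 0 listed calls without control replicate 3 (144 of all) and 1 without control replicate 1 (2257 of all). Without 3000 Hz replicate 1, 2 or 3 there were also 0 (246, 254 and 476 of all). The counts at an unadjusted p, here and for the lists below, have no share of all probe sets beside them. Nothing is read from those counts.

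Of the other U-box ligase genes, 13 of 31 were measured. PUB22, the closest partner of PUB23, had signals of 6.46, 6.62 and 6.73 at 500 Hz, against 5.58, 6.50 and 5.58 in the control, a log2 difference of 0.72 ± 0.24 (SE, n = 3, limma adjusted p = 0.0715). Its difference was 0.05 ± 0.24 at 250 Hz, 0.19 ± 0.24 at 1000 Hz, 0.26 ± 0.24 at 2000 Hz and 0.59 ± 0.24 at 3000 Hz, with limma adjusted p of 0.147 or more. PUB24 had 0.68 ± 0.34 at 500 Hz and -0.22 ± 0.34 at 2000 Hz (limma adjusted p = 0.211 and 0.771). So with all arrays neither partner passed the test at any tone, and the control replicate with the highest PUB22 signal was again replicate 2. Without that array PUB22 had 1.02 at 500 Hz and 0.90 at 3000 Hz, and PUB24 had 0.58 at 500 Hz.

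At 500 Hz 2 of the 13 rose, AT1G23030 and AT5G37490. AT1G23030, listed here as a U-box gene by its locus, had signals of 9.46, 9.38 and 9.72 at 500 Hz, against 7.00, 8.98 and 7.51 in the control, a rise of 1.69 ± 0.34 (limma adjusted p = 0.0128). It also rose at 2000 Hz, by 1.59 ± 0.34, and at 3000 Hz, by 1.35 ± 0.34. Without control replicate 2 its differences were 2.265 at 500 Hz, 2.165 at 2000 Hz and 1.93 at 3000 Hz. AT5G37490 rose by 0.32 ± 0.08 at 500 Hz at a low signal of 4.82 to 4.99, against 4.47 to 4.71 in the control. PUB25 rose at 2000 Hz by 0.68 ± 0.14 (limma adjusted p = 0.0233), with signals of 5.71, 5.53 and 6.32 at 2000 Hz, against 5.17, 5.24 and 5.11 in the control. The median log2 difference of the 13 was 0.27 at 500 Hz and 0.08 at 2000 Hz, beside -0.01 and -0.02 over all probe sets.

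Among early wound and pathogen response genes, 12 of 61 were measured, and 6 rose at 500 Hz. They were CML38, a calmodulin-like gene, at 3.60 ± 0.61, EXO, a cell expansion gene, at 2.88 ± 0.67, WRKY22 at 2.24 ± 0.43, AT1G76600 at 2.01 ± 0.37, AT3G10930 at 1.95 ± 0.45 and AT1G19020 at 1.62 ± 0.41 (log2 differences ± SE, limma adjusted p from 0.00962 to 0.0272). EXO had 12.87, 13.25 and 12.91 at 500 Hz, against 8.93, 12.72 and 8.75 in the control, so control replicate 2 lay close to the sound arrays, and the log2 difference of EXO was 4.17 without that array. At 500 Hz without control replicate 2, CML38 had 4.37, WRKY22 2.93, AT1G76600 2.375, AT3G10930 2.26 and AT1G19020 2.04. CML38 passed the test at 2000 Hz, at 2.71 ± 0.61, and at 3000 Hz, at 2.76 ± 0.61. EXO had 2.54 ± 0.67 and 2.29 ± 0.67 at these tones (limma adjusted p = 0.0522 and 0.0513), and AT1G76600 had 1.23 ± 0.37 and 1.11 ± 0.37 (limma adjusted p = 0.0805 and 0.082). STZ, a zinc finger gene, had 1.54 ± 0.49 at 500 Hz (limma adjusted p = 0.0578), and WRKY53 had 0.09 ± 0.41. The median over the 12 was 1.14 at 250 Hz, 1.58 at 500 Hz, 0.97 at 1000 Hz, 0.86 at 2000 Hz and 0.90 at 3000 Hz, with the highest value at 500 Hz. The difference of the list between tones was not tested. WRKY22 had 5.10, 7.49 and 5.71 on control replicates 1, 2 and 3, the same order as AT1G02660.

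The remaining lists were thinly covered. Of the genes of plastid lipases and jasmonate 4 of 32 were measured, and OPCL1, which acts in jasmonate synthesis, rose by 0.66 ± 0.18 at 500 Hz (limma adjusted p = 0.0368). AT3G62590 of the same list had 0.77 ± 0.24 at 500 Hz and -0.59 ± 0.24 at 2000 Hz (limma adjusted p = 0.0586 and 0.19). Of the 31 abscisic acid genes 2 were measured, COR47 and COR15A, cold- and drought-regulated genes, and 0 passed in limma at any tone, with 1 at an unadjusted p under 0.05 at 250, 1000 and 3000 Hz each. COR47 had log2 differences between 0.08 ± 0.29 at 3000 Hz and 0.57 ± 0.29 at 500 Hz. COR15A had 0.69 ± 0.25 at 250 Hz, -0.27 ± 0.25 at 500 Hz, 0.53 ± 0.25 at 1000 Hz, 0.35 ± 0.25 at 2000 Hz and 0.67 ± 0.25 at 3000 Hz (limma adjusted p of 0.114 or more). The 8 measured of 15 listed MATE transporter loci had 0 passing in limma at any tone (1 at an unadjusted p under 0.05 at 1000 and at 2000 Hz), with medians between -0.08 and 0.06. Without control replicate 2, 1 of the 8 was called at 250, 1000, 2000 and 3000 Hz each, beside 2175, 2177, 2576 and 2769 of all 22746 probe sets. Of 4 measured pattern-immunity genes and partners 0 passed in limma at any tone, with 1 at an unadjusted p under 0.05 at 500, 1000 and 3000 Hz each. BIK1, a cytoplasmic kinase that acts downstream of immune receptors, had 0.68 ± 0.28 at 500 Hz (limma adjusted p = 0.128), and RPN12a, a proteasome subunit that PUB22 and PUB23 are known to ubiquitinate, had -0.05 ± 0.08.

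**Figure D4:**
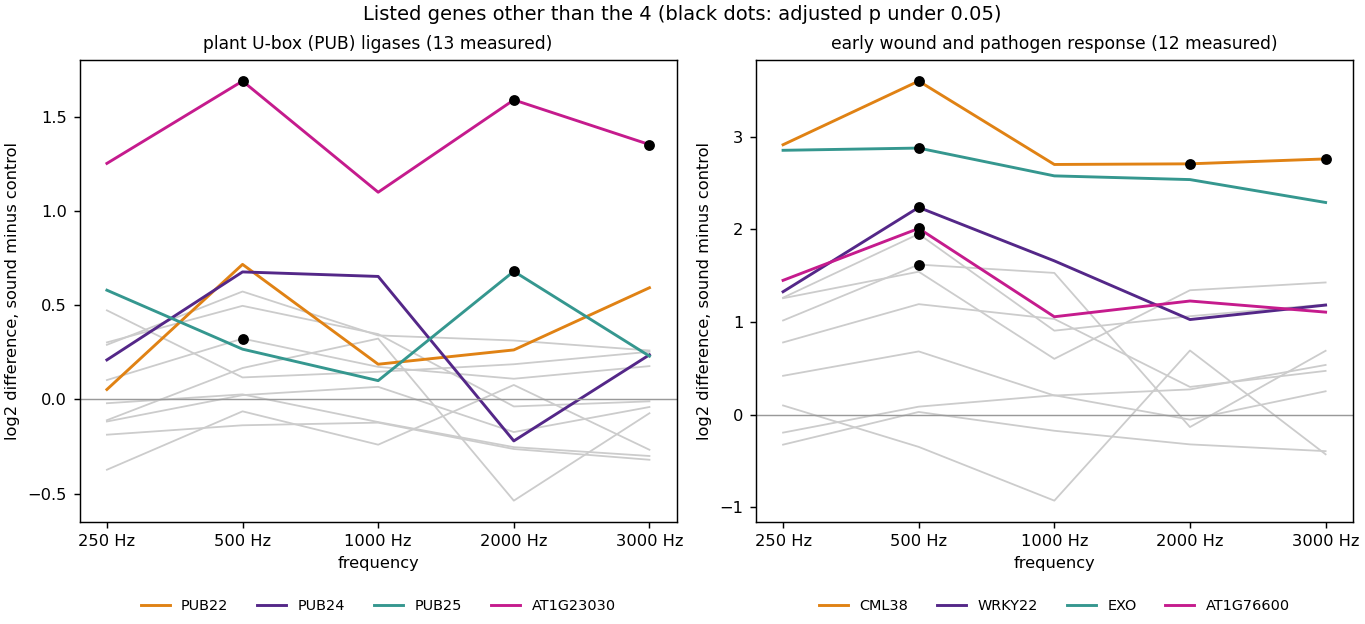
Log2 difference from control (vertical axis) at each frequency for the 13 measured U-box ligase genes (left) and the 12 measured early wound and pathogen response genes (right), without the 4 genes; coloured lines are named, grey lines are the other genes and black dots mark an adjusted p under 0.05. AT1G23030 was called at 500, 2000 and 3000 Hz and CML38 at the same 3 tones, while PUB22 and PUB24 had no call.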

How the data were processed

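Each deposited value is the log2 signal of a probe set on an array. Affymetrix Expression Console 1.1, RMA and MAS5 are named in the submitters' processing notes, with no statement of which made the deposited column. Array medians lay between 6.51 and 6.63, so no further scaling was applied. After 64 Affymetrix control probe sets were set aside, 22746 probe sets were fitted. Of these 13513 had 1 gene in the platform's table, 503 several and 8730 no gene that could be named here. Gene IDs of 13436 matched the RefSeq table (TAIR10.1), used for names only.

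A linear model over the 6 groups was fitted in limma 3.58.1 (R 4.3.3, two-sided, eBayes with an intensity trend), adjusted by the Benjamini-Hochberg method over all 22746 probe sets, with 0.05 as the threshold. Errors are SE of the fit unless SD is given. The number of arrays limits the precision. The fit was tested on simulated data. Replicates are biological per the labels, with no statement that they came from separate sowings, so the p-values measure only the spread between these samples, which may be technical. The 4 genes and the lists were chosen with earlier results of these data known, and lists were matched by locus. The nearest genes (5 by signal, 3 by deviation, with 1 gene each), up to 3 passing genes per list and tone, and PUB22, PUB24, AT5G12010 and AT3G62590 were to be named; other listed genes are examples chosen after their values were seen. AT5G12010 had log2 differences from -0.39 ± 0.12 at 3000 Hz to 0.03 ± 0.12 at 500 Hz. Alternatives were centring, 6 arrays alone, 12 arrays of the lower spike set, a replicate block, no trend, brighter probe sets and leaving out arrays. A planned promoter motif search was not run, and sequences were not used here.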

Additional observations from a re-analysis of the deposited data

How the results depend on the processing

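Fits that keep all arrays of both groups at their deposited signals leave the group means, and so the differences of the 4 genes, as they are. Centring each array on its median shifted these differences. The median over the 4 genes went from 1.01 to 1.00 at 250 Hz and from 1.79 to 1.84 at 500 Hz. Leaving out a control array moved the differences most for AT1G02660, which had 0.56 at 2000 Hz without control replicate 1 and 2.06 without control replicate 2. The 1 difference of the 4 genes below 0 was the -0.01 of PUB23 at 2000 Hz without control replicate 3. Leaving out 1 array at a time, the median over the 4 genes ran from 0.85 to 1.27 at 250 Hz, 1.40 to 2.19 at 500 Hz, 0.98 to 1.66 at 1000 Hz, 0.81 to 1.54 at 2000 Hz and 1.04 to 1.47 at 3000 Hz. The listed genes called then ran from 0 to 12, 0 to 13, 0 to 10, 0 to 8 and 0 to 8 at these tones, and all probe sets called from 3 to 2175, 2 to 4075, 0 to 2177, 48 to 2576 and 144 to 2769. With the 6 arrays of a comparison alone, 1 probe set was called at 250 Hz and 0 at 500, 2000 and 3000 Hz, and 0 listed genes at 500, 2000 and 3000 Hz, with fewer arrays to estimate the spread. With the 12 arrays of the lower spike set, 1 listed gene and 7 of all probe sets were called at 250 Hz. At 500 Hz 5 listed genes and 709 probe sets were called in that fit. With brighter probe sets only, 4 of 11375 probe sets were called at 250 Hz. At 3000 Hz 5 of 26 listed genes and 1686 of the 11375 were called. With the replicate number as a block, 4 listed genes and 1387 of all probe sets were called at 3000 Hz. Other counts stayed within 1.5 times, with 9 listed genes and 1816 of all probe sets at 500 Hz. Same-numbered arrays had correlations of deviations from -0.33 to 0.35, over 0.1 in 12 of 45 pairs. Arrays with different numbers were not compared in this way, so these values cannot tell whether the numbers pair the arrays. The fit of 12 arrays also drops 6 arrays at once. The causes of these changes in counts were not tested, nor was the part of the smaller number of arrays. Dim signals, such as those of AT5G37490, limit what could be seen.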
